A study of Mus musculus with 9 samples.

Results

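The genes described here move zinc and copper in liver cells, or switch on those that do. They are the zinc transporter families Slc30a (ZnT, 10 genes) and Slc39a (ZIP, 12 genes), without Slc39a8 and Slc39a14, together with 6 genes of copper handling (Slc31a1, Slc31a2, Atox1, Atp7b, Ccs and Commd1), the zinc-sensing transcription factor gene Mtf1 and the phagosomal metal transporter gene Slc11a1. They were chosen by symbol and not by a cutoff on any measured value, though with earlier results of these data known. They make up 30 of the 23420 genes in the count tables. A low-count filter kept 26 of the 30, among 13020 genes in all. Their RNA was measured by sequencing in the livers of 9 male wild-type C57BL/6 mice. All mice ate AIN-93G, a purified soy-free feed, from 5 weeks of age for 50 days, and livers were taken at 12 weeks. The feed held 2.5 mg iron per kg (low iron, 3 mice), 37.5 mg per kg (sufficient iron, 3 mice) or 1000 mg per kg (high iron, 3 mice). Each library carries its diet and its title number as its name.

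Zinc is handled by a pair of families that work in opposite directions. ZnT proteins lower cytosolic zinc by sending it out of the cell or into organelles, and ZIP proteins raise it by bringing zinc in or releasing it from organelles. Free cytosolic zinc is buffered by metallothioneins, and MTF1 senses it and binds metal response elements (MREs) in the promoters of metallothionein genes and of Slc30a1. Copper enters hepatocytes through CTR1 (Slc31a1) and is passed by small chaperones to its users: ATOX1 hands it to the pump ATP7B, which loads ceruloplasmin and excretes copper into bile, and CCS hands it to superoxide dismutase. Copper and iron meet in ceruloplasmin, a copper enzyme that oxidises iron, and several of these transporters can also carry iron or manganese.

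The libraries held 22.0 to 33.8 M (mega) gene reads each, 245 M in all. Low-iron replicate 1 and high-iron replicate 12 gave 43.7% and 40.5% of their gene reads to Rn45s, the ribosomal RNA precursor, where the other 7 libraries gave it 12.5% to 23.8%. Reads of shorter and longer transcripts were also unevenly represented between libraries, in low-iron replicate 1, high-iron replicate 8 and sufficient-iron replicate 6 above all. Length-corrected values are given below for Ccs, Atox1, Slc11a1, Slc39a5 and Slc30a10, and for the median of the members. Hepatocyte markers summed to 76200 to 85000 CPM (counts scaled to a common library size with TMM factors) in low-iron livers, 60400 to 80000 CPM in sufficient-iron livers and 56800 to 67700 CPM in high-iron livers, and 12 of the 13 passed the filter. The exception was the urea-cycle gene Ass1, an abundant hepatocyte transcript, which had at most 0.546 CPM in any library. The common coefficient of biological variation in edgeR was 0.177.

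No zinc or copper transport gene passed the threshold in any diet comparison of the edgeR fit. With edgeR's quasi-likelihood test and Benjamini-Hochberg adjustment over all 13020 genes, 0 of 26 had an adjusted p under 0.05 for high against sufficient iron, where 0.215% of all tested genes did. For low against sufficient iron the count was 0 of 26, where 0% of all genes passed, and for high against low iron it was 0 of 26, where 0.507% passed. The test for any difference among the 3 diets (0.215% of all genes) and the trend on log10 dietary iron (0.307% of all genes) also called 0 members. DESeq2 and limma-voom likewise called 0 members in each of the 5 tests. For low against sufficient iron, however, DESeq2 gave no adjusted p for Slc11a1 (its unadjusted p was 0.00131) or for Atox1 (unadjusted p = 0.0509). It withholds an adjusted p from genes under a cutoff on mean count. Among the members only Slc31a1 and Ccs (162 and 97.4 CPM) had a higher mean level than Atox1 (71.3 CPM). Atox1 and the members below it could not be called there, so that 0 says nothing about them. Only limma-voom with sample quality weights made a call, of Slc39a5 in 3 of the 5, described with that gene. The lowest adjusted p among the members was 0.588 for high against sufficient iron, 0.446 for low against sufficient iron, 0.326 for high against low iron, 0.307 for the 3-diet test and 0.443 for the trend.

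At an unadjusted p under 0.05 the share of members was above that of all genes only for high against low iron. These shares rest on few genes and were not tested. High against sufficient iron had 0 such members, where 9.28% of all tested genes reached that level. Low against sufficient iron had 2, Ccs and Slc11a1, which is 7.69% of the 26 where 11.2% of all genes did so. High against low iron had 3, Slc11a1, Slc30a10 and Slc39a5, or 11.5% where 9.65% of all genes did so. The 3-diet test had 1 of 26, Slc11a1, where 10.7% of all genes did so. The trend had 1 of 26, Slc39a5, where 8.73% of all genes did so.

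**Figure D1:**
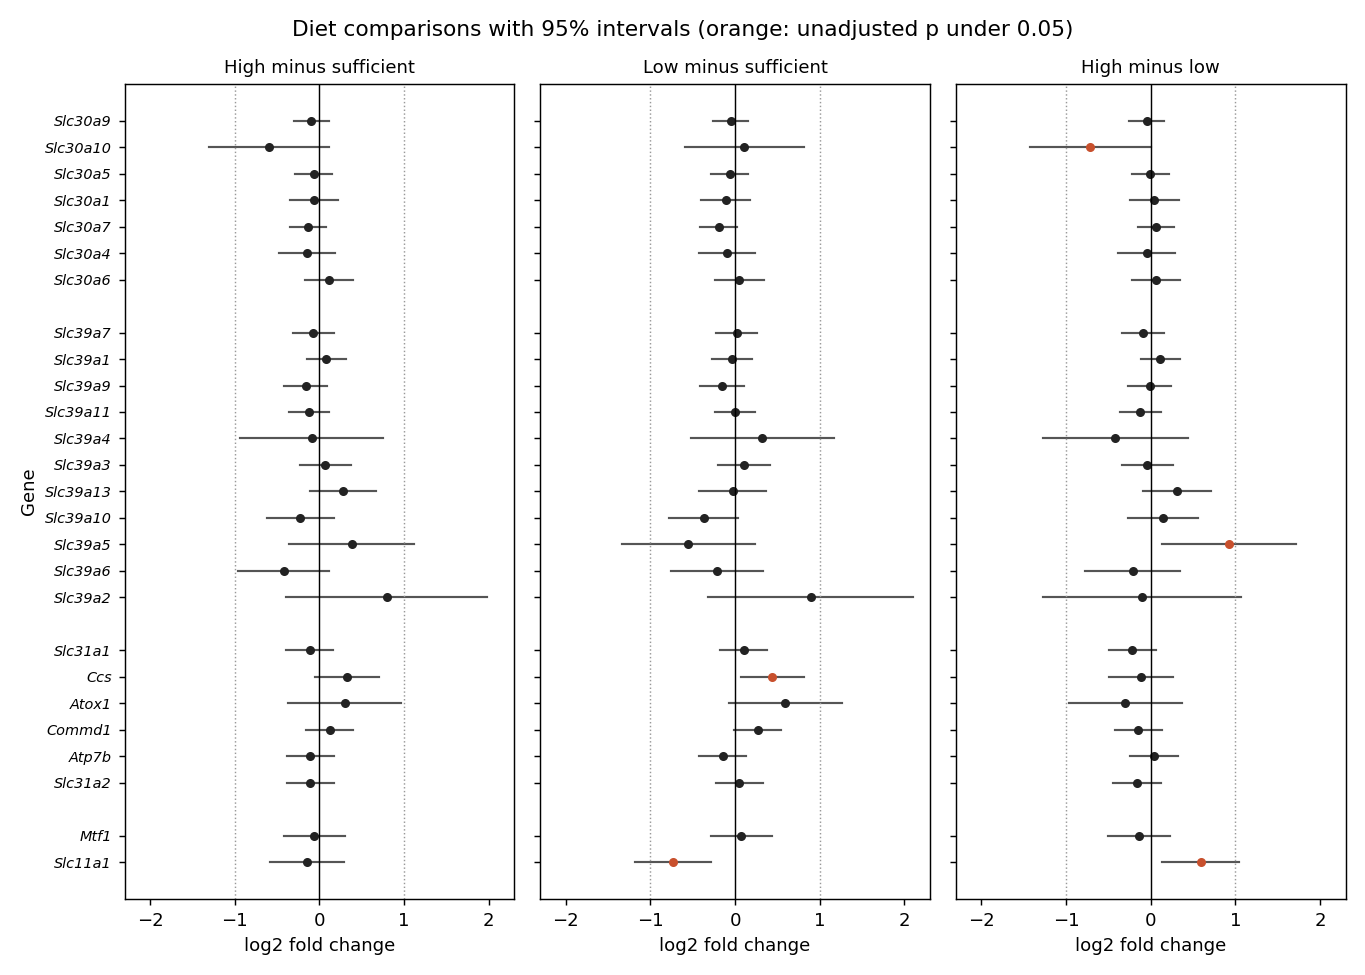
Log2 fold change of each of the 26 tested genes (points) with its 95% interval (bars) from the edgeR fit, for high minus sufficient iron, low minus sufficient iron and high minus low iron; the dotted lines mark 2-fold either way and orange points have an unadjusted p under 0.05. Most intervals are short and straddle 0, and the long ones belong to Slc39a2, Slc39a4, Slc39a5, Slc30a10 and Atox1.

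The intervals show the range of differences that each fit allows. For 17 of the 26 genes the 95% interval of the log2 fold change between high and sufficient iron lay within 1.5-fold either way. The same held for 17 genes between low and sufficient iron and for 18 between high and low iron. Intervals reached past 2-fold for Slc30a10, Slc39a2 and Slc39a5 in high against sufficient iron, for Atox1, Slc11a1, Slc39a2, Slc39a4 and Slc39a5 in low against sufficient iron, and for Slc11a1, Slc30a10, Slc39a2, Slc39a4 and Slc39a5 in high against low iron. For these genes the interval takes in differences of 2-fold or more. The median absolute log2 difference of the members was 0.12 for high against sufficient iron, where that of all tested genes was 0.17. It was 0.11 for low against sufficient iron, where that of all genes was 0.18, and 0.12 for high against low iron, where that of all genes was 0.16.

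Signed medians were close to 0. The median log2 fold change of the members was -0.08 for high against sufficient iron, -0.02 for low against sufficient iron and -0.05 for high against low iron, where the medians of all tested genes were -0.01, 0.00 and -0.01. With the length offset described below, the medians of the members were -0.016, -0.005 and -0.067 in the same order. The counts that follow are without that offset. The fitted value was higher in high-iron than in sufficient-iron livers for 9 of the 26 members (34.6%, where 48.1% of all genes were higher). It was higher in low-iron than in sufficient-iron livers for 12 (46.2%, where 49.4% of all genes were), and higher in high-iron than in low-iron livers for 9 (34.6%, where 48.8% of all genes were). These 3 comparisons share libraries and are not independent of each other.

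**Figure D2:**
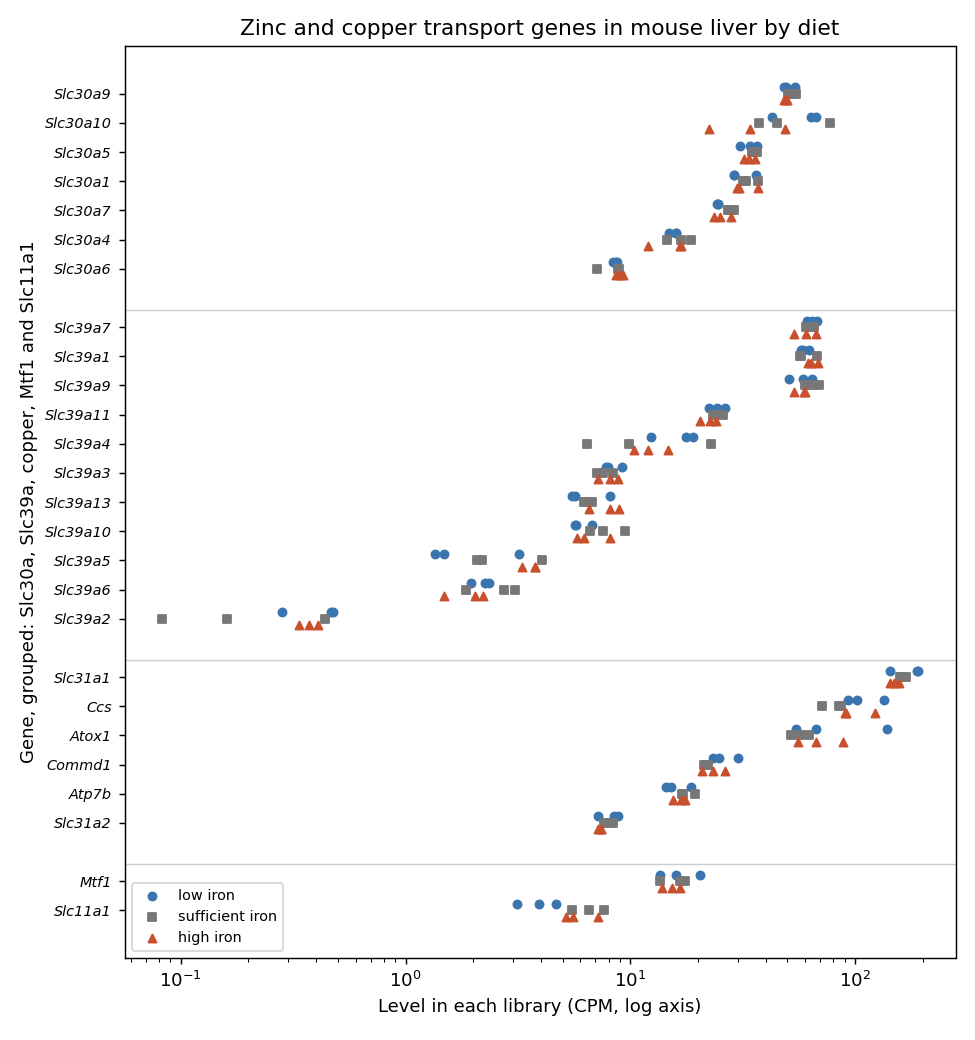
Level of each tested gene in each of the 9 libraries, in CPM on a log axis, with genes grouped into Slc30a transporters, Slc39a transporters, copper genes, and Mtf1 with Slc11a1; circles are low iron, squares sufficient iron and triangles high iron, 3 livers each. The points of most genes fall on top of each other, and Slc39a2, at under 0.5 CPM, lies far to the left of the rest.

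Among the ZnT exporters, 7 of 10 genes were tested and 0 passed in any comparison. On levels per length (mean CPM per kb of the principal transcript), Slc30a5 was the highest at 10.8 CPM per kb, followed by Slc30a9 at 8.89, Slc30a10 at 8.35 and Slc30a1 at 6.20 CPM per kb. Slc30a6 (4.01), Slc30a4 (2.90) and Slc30a7 (2.88 CPM per kb) followed. ZnT5, the product of Slc30a5, pairs with ZnT6 in the early secretory pathway to load zinc into enzymes such as alkaline phosphatases, and ZnT7 does so in the Golgi. Slc30a5 had 30.8, 34.2 and 36.7 CPM in low-iron livers, 36.6, 35.1 and 34.8 CPM in sufficient-iron livers and 32.1, 33.7 and 36.0 CPM in high-iron livers. The 3 diets overlapped, and the log2 fold change was -0.07 ± 0.10 (SE) for high against sufficient iron and -0.06 ± 0.10 for low against sufficient iron.

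Several ZnT genes were among the steadiest of all liver genes. The within-diet SD of log2 CPM (pseudocount 0.1 CPM, pooled over diets) was 0.0614 for Slc30a9, the mitochondrial zinc exporter gene, at the 1.07 percentile of all tested genes. It was 0.0775 for Slc30a7 and 0.0902 for Slc30a5. Slc30a9 ranged over only 1.13-fold across the 9 livers, between 48.3 and 54.4 CPM. Its 3 high-iron values (50.0, 48.3 and 49.1 CPM) lay just under its 3 sufficient-iron values (54.4, 50.4 and 52.8 CPM), a log2 fold change of -0.10 ± 0.09 (edgeR unadjusted p = 0.322). Slc30a7 had 24.5, 24.5 and 24.4 CPM in low-iron livers, below the 27.8, 29.0 and 27.2 CPM of sufficient-iron livers without overlap (log2 fold change -0.19 ± 0.10, edgeR adjusted p = 0.464). Over all tested genes the median of this SD was 0.221, and over the 26 members it was 0.156. Within-diet SD was not adjusted for expression level, and the members' median level (20.3 CPM) was above that of all tested genes (11.5 CPM).

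Slc30a1, the plasma membrane zinc exporter and the ZnT gene classically controlled by MTF1, showed no separation by diet. It had 28.9, 28.9 and 36.2 CPM in low-iron livers, 32.7, 31.8 and 37.0 CPM in sufficient-iron livers and 29.8, 30.4 and 37.1 CPM in high-iron livers. Its log2 fold change was -0.06 ± 0.13 for high against sufficient iron, with a 95% interval of -0.35 to 0.22. For low against sufficient iron it was -0.11 ± 0.13, with an interval of -0.40 to 0.18. Slc30a1 lies on chr1:191906767-191913247 of GRCm38, plus strand.

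Slc30a10 was the ZnT gene with the widest spread. It encodes a manganese exporter that in liver sits at the bile canaliculus, and it lies on chr1:185454848-185468762 of GRCm38, plus strand. Its level was 66.9, 63.5 and 42.5 CPM in low-iron livers, 77.5, 37.6 and 45.0 CPM in sufficient-iron livers and 48.9, 34.0 and 22.3 CPM in high-iron livers. The lowest value belonged to high-iron replicate 12 and the highest to sufficient-iron replicate 2, and every pair of diets overlapped. The log2 fold change for high against low iron was -0.71 ± 0.32 (edgeR unadjusted p = 0.0499, adjusted p = 0.518), and for high against sufficient iron -0.60 ± 0.32 (adjusted p = 0.591). Without high-iron replicate 12 these were -0.47 and -0.36, and without low-iron replicate 1 as well the first was -0.36. Without sufficient-iron replicate 2 the difference from sufficient iron was -0.23, and without high-iron replicate 4 it was -0.91. Its within-diet SD of 0.497 on the log2 scale stood at the 90.1 percentile of tested genes.

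The promoters of Slc30a1 and Slc30a10 are shown because both genes are ZnT exporters with matches to the MRE, one the classical MTF1 target and the other the ZnT gene that varied most. Each line gives the 250 bases before the RefSeq start site (GRCm38.p6, plus strand, 5′ to 3′), chr1:191906531-191906780 for Slc30a1 and chr1:185454598-185454847 for Slc30a10. Capitals mark each match to TGCACNC or TGCGCNC on either strand.
Slc30a1: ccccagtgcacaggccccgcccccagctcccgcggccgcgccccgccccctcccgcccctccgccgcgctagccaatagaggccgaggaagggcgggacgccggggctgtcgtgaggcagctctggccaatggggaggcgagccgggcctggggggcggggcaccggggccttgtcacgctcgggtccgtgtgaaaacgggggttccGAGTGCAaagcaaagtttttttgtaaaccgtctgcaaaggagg
Slc30a10: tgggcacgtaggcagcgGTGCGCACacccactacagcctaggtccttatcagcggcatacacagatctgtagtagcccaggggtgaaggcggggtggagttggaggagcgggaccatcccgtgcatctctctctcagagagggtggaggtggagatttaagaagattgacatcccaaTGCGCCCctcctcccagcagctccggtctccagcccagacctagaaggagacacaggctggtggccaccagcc

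The Slc30a1 window held 1 match, on the minus strand and beginning 43 bases before the start site. The Slc30a10 window held 3, of which 2 overlap on opposite strands at 233 and 232 bases before the start site and 1 lies 73 bases before it. Of 32851 promoter windows of the same length in that table, 21.4% held at least 1 match and 1.26% held 3 or more. Among the members, 26 of 30 had a window in the table and 12 of these had a match in at least 1 of their windows. That is a count of genes, some with more than 1 window, where the 21.4% is a share of windows. Base composition was not matched, and the members were not tested against that share. The metallothionein genes Mt1 and Mt2 had 1 and 3 matches. A match is a stretch of letters and was not measured as a bound site here.

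The other ZnT genes were at or near the limit of detection or without separation. Slc30a4, a vesicular zinc transporter gene, had 14.8 to 16.0 CPM in low-iron livers, 14.6 to 18.7 CPM in sufficient-iron livers and 12.0 to 16.8 CPM in high-iron livers. Slc30a6 ranged between 7.09 and 9.25 CPM over all livers. Slc30a2 (secretory vesicles of gland cells), Slc30a3 (synaptic vesicles) and Slc30a8 (insulin granules) did not pass the low-count filter. Slc30a2 had 32 reads, Slc30a3 43 reads and Slc30a8 35 reads over the 9 libraries together. Slc30a2 had 0 reads in high-iron replicate 12, which allows up to 0.160 CPM at 3 reads, and Slc30a3 had 0 in low-iron replicate 9, which allows up to 0.106 CPM. These limits cover counting error only.

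Of the ZIP genes, 11 of 12 were tested and 0 passed in any comparison. The highest levels per length were those of Slc39a7 (27.1 CPM per kb), which releases zinc from the endoplasmic reticulum, and Slc39a1 (26.1 CPM per kb), a plasma membrane importer. Slc39a9 followed with 11.5 CPM per kb and Slc39a11 with 8.89 CPM per kb. The lowest tested was Slc39a2, at 0.144 CPM per kb and 3 to 13 reads per library. Slc39a7 had 64.2, 67.7 and 61.4 CPM in low-iron livers, 66.0, 60.5 and 64.4 CPM in sufficient-iron livers and 60.7, 67.3 and 53.5 CPM in high-iron livers. The diets overlapped, with a log2 fold change of -0.07 ± 0.11 for high against sufficient iron. Slc39a14 and Slc39a8, the family members known to carry iron as well as zinc and left out of the member list, had 25.0 and 7.48 CPM per kb.

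Those iron-carrying ZIP genes also did not separate by diet. Slc39a14 had 98.4, 123 and 149 CPM in low-iron livers, 132, 119 and 139 CPM in sufficient-iron livers and 97.9, 119 and 132 CPM in high-iron livers. Slc39a8 had 21.2, 30.3 and 29.2 CPM in low-iron livers, 29.0, 28.1 and 24.0 CPM in sufficient-iron livers and 28.8, 21.2 and 26.1 CPM in high-iron livers. For high against sufficient iron the log2 fold change was -0.16 ± 0.16 for Slc39a14 and -0.09 ± 0.16 for Slc39a8, with adjusted p = 0.752 and 0.849 by edgeR.

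Slc39a5 was the ZIP gene with the lowest p. It encodes a basolateral zinc transporter best known in the intestine and the exocrine pancreas, and it lies on chr10:128395931-128401229 of GRCm38, minus strand. Its level was 3.20, 1.35 and 1.48 CPM in low-iron livers, 2.19, 4.05 and 2.07 CPM in sufficient-iron livers and 3.78, 3.78 and 3.31 CPM in high-iron livers, from 37 to 176 reads per library. All 3 high-iron values lay above all 3 low-iron values, and the closest pair was high-iron replicate 12 and low-iron replicate 1. Sufficient-iron livers overlapped both.

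The log2 fold change of Slc39a5 for high against low iron was 0.93 ± 0.36 (edgeR unadjusted p = 0.0259, adjusted p = 0.406). It was 0.38 ± 0.33 for high against sufficient iron and -0.55 ± 0.36 for low against sufficient iron. The slope on log10 dietary iron was 0.35 ± 0.13 (edgeR adjusted p = 0.443). The call depended on how libraries were weighted. With limma-voom and sample quality weights, which give less weight to libraries that stand apart, the difference between high and low iron was 1.28 with adjusted p = 0.0165, and the 3-diet test gave adjusted p = 0.0447. With each library left out in turn, the edgeR value lay between 0.70 without low-iron replicate 5 (unadjusted p = 0.106, adjusted p = 0.638) and 1.36 without low-iron replicate 1 (adjusted p = 0.0959). Of the pancreas markers, 7 of 9 were at 0 in every library, among them the digestive enzyme genes Cpa1, Ctrb1, Pnlip and Prss2. The list summed to 8.99 to 12.1 CPM in low-iron livers, 4.26 to 9.22 CPM in sufficient-iron livers and 6.89 to 11.2 CPM in high-iron livers. Nearly all of this sum was Cela1, the only pancreas marker past the filter. It gave 12.0 of 12.1 CPM in low-iron replicate 1 and 4.07 of 4.26 CPM in sufficient-iron replicate 6. Of the 7 intestine markers, Cdx2 and Sis were at 0 in every library and only Apoa4 and Fabp2, which liver also expresses, passed the filter. That list summed to 309 to 814 CPM in low-iron livers, 456 to 2380 CPM in sufficient-iron livers and 162 to 204 CPM in high-iron livers, and its part in the Slc39a5 values was not tested.

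Slc39a4, the zinc importer whose loss causes acrodermatitis enteropathica in humans, had the widest within-diet SD of the members at 0.587. It had 12.4, 17.6 and 19.0 CPM in low-iron livers, 9.84, 23.0 and 6.40 CPM in sufficient-iron livers and 10.4, 12.0 and 14.7 CPM in high-iron livers. The highest and the lowest value both came from sufficient-iron livers. Its log2 fold change for high against low iron was -0.41 ± 0.39, with an interval of -1.27 to 0.44. Slc39a10, a plasma membrane importer gene, had means of 6.07 ± 0.605 CPM in low-iron livers, 7.89 ± 1.48 CPM in sufficient-iron livers and 6.71 ± 1.21 CPM in high-iron livers (SD, n = 3 each). Slc39a13, a zinc transporter of the secretory pathway needed for connective tissue, had means of 6.44 ± 1.45 CPM in low-iron livers, 6.48 ± 0.282 CPM in sufficient-iron livers and 7.86 ± 1.196 CPM in high-iron livers (SD, n = 3 each).

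The other ZIP genes also overlapped or lay close together between diets. Slc39a1 had a log2 fold change of 0.08 ± 0.11 for high against sufficient iron, Slc39a3 0.07 ± 0.14 and Slc39a11 -0.12 ± 0.11. Slc39a9, which encodes a Golgi and cell surface transporter, had 59.86, 53.7 and 59.2 CPM in high-iron livers, against 64.6, 68.8 and 59.94 CPM in sufficient-iron livers. These groups met without overlap (log2 fold change -0.16 ± 0.11, edgeR unadjusted p = 0.185). Slc39a6 was low, with 25 to 119 reads per library and a log2 fold change of -0.42 ± 0.24 for high against sufficient iron. Slc39a12, known from brain, had 14 reads in all and did not pass the filter. It had 0 reads in low-iron replicate 1 and high-iron replicate 12, which allows up to 0.234 and 0.160 CPM there.

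The copper genes held the highest levels of the set. On levels per length Atox1 had 132 CPM per kb (97.1 percentile of tested genes), Ccs 91.3 CPM per kb (95.8 percentile) and Slc31a1 43.6 CPM per kb (91.8 percentile). Commd1 had 5.27, Slc31a2 4.29 and Atp7b 2.60 CPM per kb. All 6 were tested and 0 passed in any comparison. In low against sufficient iron 5 of the 6 had a fitted value above 0, with a median log2 fold change of 0.18.

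Slc31a1, the copper importer gene and the most abundant member by CPM, had 143, 190 and 189 CPM in low-iron livers, 169, 158 and 160 CPM in sufficient-iron livers and 144, 150 and 157 CPM in high-iron livers. The high-iron values lay below the sufficient-iron values without overlap, and the log2 fold change was -0.11 ± 0.13 (edgeR adjusted p = 0.769). Slc31a2, the related gene of a transporter of late endosomes and lysosomes, had 7.19, 7.39 and 7.42 CPM in high-iron livers, against 8.35, 7.78 and 7.64 CPM in sufficient-iron livers, also without overlap (-0.11 ± 0.13). Counting all genes whose groups did not overlap between high and sufficient iron, the members had 5 (19.2%), where 17.8% of all tested genes did so: Ccs higher, and Slc30a9, Slc31a1, Slc31a2 and Slc39a9 lower. Atp7b, the copper pump gene mutated in Wilson disease, had 16.9, 15.5 and 17.6 CPM in high-iron livers, against 17.2, 19.5 and 17.1 CPM in sufficient-iron livers (log2 fold change -0.11 ± 0.13).

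Ccs, the chaperone gene that delivers copper to superoxide dismutase 1, was the copper gene with the lowest p. It had 134, 93.2 and 102 CPM in low-iron livers, 86.5, 71.6 and 84.5 CPM in sufficient-iron livers and 90.9, 123 and 90.1 CPM in high-iron livers. All low-iron and all high-iron values lay above all sufficient-iron values. The log2 fold change was 0.44 ± 0.17 for low against sufficient iron (edgeR unadjusted p = 0.0253, adjusted p = 0.446) and 0.33 ± 0.17 for high against sufficient iron (adjusted p = 0.588). Without low-iron replicate 1 the first was 0.27, with an unadjusted p of 0.108 by edgeR.

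Atox1, the chaperone gene that serves the copper pumps, had 138, 54.5 and 67.1 CPM in low-iron livers, 56.7, 52.1 and 62.6 CPM in sufficient-iron livers and 66.7, 87.9 and 55.9 CPM in high-iron livers. Low-iron replicate 1 stood far above the rest, and the groups overlapped. Its log2 fold change for low against sufficient iron was 0.59 ± 0.30 with that library and 0.08 without it. Commd1, whose product works in endosomal sorting with ATP7B and whose loss causes copper storage in the livers of Bedlington terriers, had 30.3, 23.3 and 24.7 CPM in low-iron livers, against 21.6, 21.2 and 22.1 CPM in sufficient-iron livers. These groups did not overlap, with a log2 fold change of 0.27 ± 0.13 (edgeR adjusted p = 0.452). In all, 4 members had groups without overlap between low and sufficient iron (15.4%, where 16.6% of all tested genes did): Ccs and Commd1 higher, Slc11a1 and Slc30a7 lower.

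Atox1 and Ccs have the shortest transcripts of the set, 0.541 and 1.07 kb, and they were high where short transcripts in general were high. In low-iron replicate 1, log2 CPM stood above the mean of the 9 libraries by 1.02 for Atox1 and 0.49 for Ccs, and by a median of 0.47 over the 1200 tested genes with transcripts under 1200 bases. In high-iron replicate 8 these deviations were 0.37, 0.36 and 0.22, and in sufficient-iron replicate 6 they were -0.38, -0.42 and -0.30. Spearman's rho between deviation and transcript length was -0.373 in low-iron replicate 1, -0.375 in high-iron replicate 8 and 0.335 in sufficient-iron replicate 6 over 12910 genes, and -0.383, -0.707 and 0.253 over the 26 members. The genes of a library share its preparation and are not independent. Over the 12910 genes rho was above 0 in each sufficient-iron library (0.208, 0.335 and 0.194) and on both sides of 0 within each other diet. With a length trend subtracted per library, the log2 fold change for low against sufficient iron was 0.19 for Ccs and 0.07 for Atox1. This length offset was fitted without regard to diet, so it also removes any diet difference shared by transcripts of like length. The same offset left Slc11a1 at -0.77 for that comparison, and Slc39a5 at 0.96 and Slc30a10 at -0.75 for high against low iron.

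**Figure D3:**
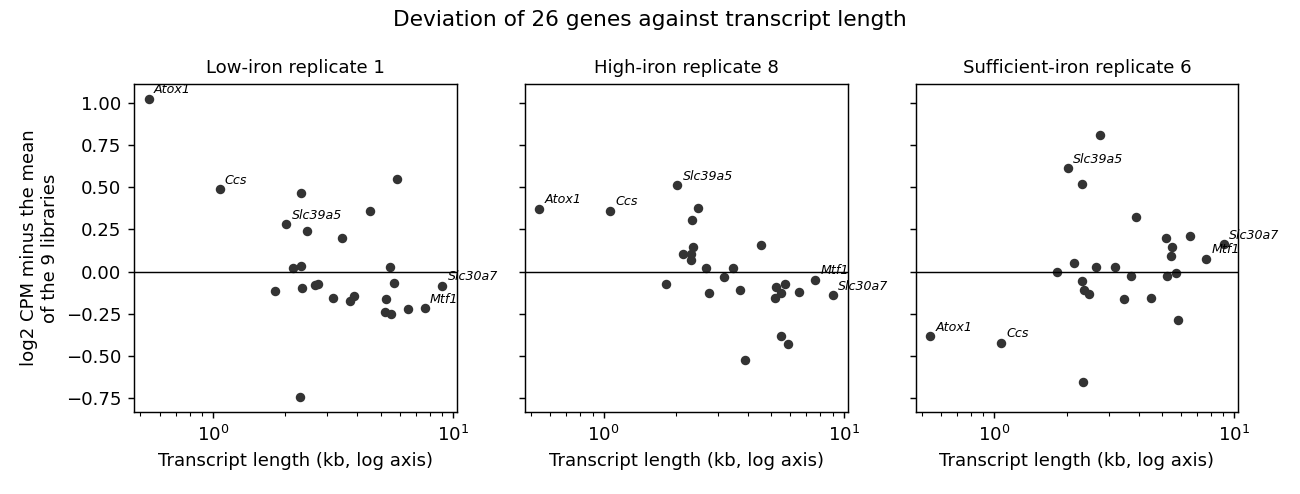
Deviation of each of the 26 tested genes (log2 CPM in one library minus its mean over all 9 libraries) against transcript length in kb on a log axis, in low-iron replicate 1, high-iron replicate 8 and sufficient-iron replicate 6. Atox1 and Ccs, at the short end, lie at 1.02 and 0.49 in the first, 0.37 and 0.36 in the second and -0.38 and -0.42 in the third.

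Mtf1 itself did not separate by diet. It had 13.6, 20.4 and 16.0 CPM in low-iron livers, 17.5, 16.7 and 13.6 CPM in sufficient-iron livers and 16.6, 15.3 and 13.8 CPM in high-iron livers. Its log2 fold change was -0.06 ± 0.16 for high against sufficient iron and 0.08 ± 0.16 for low against sufficient iron. The metallothionein genes Mt1 and Mt2, its classical targets, were among the most variable genes of these livers, with within-diet SDs of 0.915 and 1.05 on the log2 scale (99 and 99.5 percentile of tested genes). Mt1 had 12.8, 3.77 and 14.7 CPM in low-iron livers, 3.17, 14.9 and 10.4 CPM in sufficient-iron livers and 5.42, 5.32 and 7.26 CPM in high-iron livers. Mt2 had 2.26, 1.28 and 3.81 CPM in low-iron livers, 0.729, 7.25 and 3.51 CPM in sufficient-iron livers and 1.44, 1.42 and 2.46 CPM in high-iron livers. The diets overlapped for both, and the 95% interval of the log2 fold change between high and sufficient iron was -1.89 to 0.53 for Mt1 and -2.60 to 0.27 for Mt2.

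Of the list of zinc buffers and MTF1 targets, which holds Slc30a1 and Slc39a10 besides Mt1 and Mt2, 8 of 10 genes were tested and 0 passed. Csrp1, a LIM-domain protein gene, had 5.31, 6.77 and 7.51 CPM in low-iron livers, 8.74, 13.1 and 8.80 CPM in sufficient-iron livers and 8.59, 8.56 and 9.83 CPM in high-iron livers. All low-iron values lay below those of both other diets (log2 fold change -0.64 ± 0.19 against sufficient iron, edgeR unadjusted p = 0.00718, adjusted p = 0.446). Txnrd2, the mitochondrial thioredoxin reductase gene, had 28.2, 29.1 and 30.3 CPM in low-iron livers, above the 23.9, 23.5 and 24.5 CPM of sufficient-iron livers (0.29 ± 0.11, edgeR adjusted p = 0.446).

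Slc11a1 had the lowest p of all members. It encodes NRAMP1, which pumps iron and other divalent metals out of the phagosome of macrophages and neutrophils, and mice of the C57BL/6 strain carry a loss-of-function allele of it. The gene lies on chr1:74375195-74386062 of GRCm38, plus strand. It had 3.12, 3.91 and 4.65 CPM in low-iron livers, 6.52, 7.64 and 5.52 CPM in sufficient-iron livers and 5.15, 5.57 and 7.21 CPM in high-iron livers, from 40 to 332 reads per library. All 3 low-iron values lay below every value of the other 2 diets, and sufficient-iron and high-iron livers overlapped.

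For low against sufficient iron the log2 fold change of Slc11a1 was -0.73 ± 0.20, with a 95% interval of -1.18 to -0.28 (edgeR unadjusted p = 0.00435, adjusted p = 0.446). For high against low iron it was 0.59 ± 0.21 (edgeR unadjusted p = 0.0158, adjusted p = 0.326), and for high against sufficient iron -0.14 ± 0.20. Leaving out each library in turn gave -0.89 to -0.61 for low against sufficient iron. Without low-iron replicate 1 and high-iron replicate 12 together, the value for high against low iron was 0.32. Between high and low iron, 2 members had groups without overlap, Slc11a1 and Slc39a5, both higher in high-iron livers (7.69%, where 15.7% of all tested genes did not overlap).

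Markers of the cells that express Slc11a1 stood in a like order between low and sufficient iron, as did most markers of endothelial, stellate and bile duct cells. All 16 markers of Kupffer cells, the resident macrophages of the liver, were detected, with none at 0 in all libraries. Their summed level was 195, 365 and 423 CPM in low-iron livers, 609, 502 and 453 CPM in sufficient-iron livers and 336, 344 and 427 CPM in high-iron livers. For low against sufficient iron 16 of 16 had a fitted value below 0, with a median log2 fold change of -0.66. At an unadjusted p under 0.05, 10 were lower, where 5.41% of all tested genes were lower, and 0 passed the adjusted threshold with edgeR. For high against low iron 14 of 16 were above 0, with a median of 0.21, and for high against sufficient iron 15 of 16 were below 0, with a median of -0.44.

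Monocyte and neutrophil markers summed to 27.3 to 46.9 CPM in low-iron livers, 51.1 to 85.2 CPM in sufficient-iron livers and 46.7 to 57.8 CPM in high-iron livers, and 11 of 11 were below 0 for low against sufficient iron. In that comparison 7 of 7 endothelial markers (median -0.31), 8 of 9 stellate cell markers (-0.38) and 5 of 7 bile duct cell markers (-0.54) were also below 0. Hepatocyte markers went the other way, with 11 of 12 above 0 and a median of 0.28. As a share of the Kupffer marker sum, Slc11a1 made up 1.60%, 1.07% and 1.10% in low-iron livers, 1.07%, 1.52% and 1.22% in sufficient-iron livers and 1.53%, 1.62% and 1.69% in high-iron livers. Low-iron and sufficient-iron shares overlapped. The high-iron shares lay just above the sufficient-iron shares and overlapped the low-iron ones. The part of Kupffer cells, monocytes and neutrophils in the Slc11a1 values was not tested. In bulk liver RNA fewer cells of a type and less RNA per cell cannot be told apart.

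**Figure D4:**
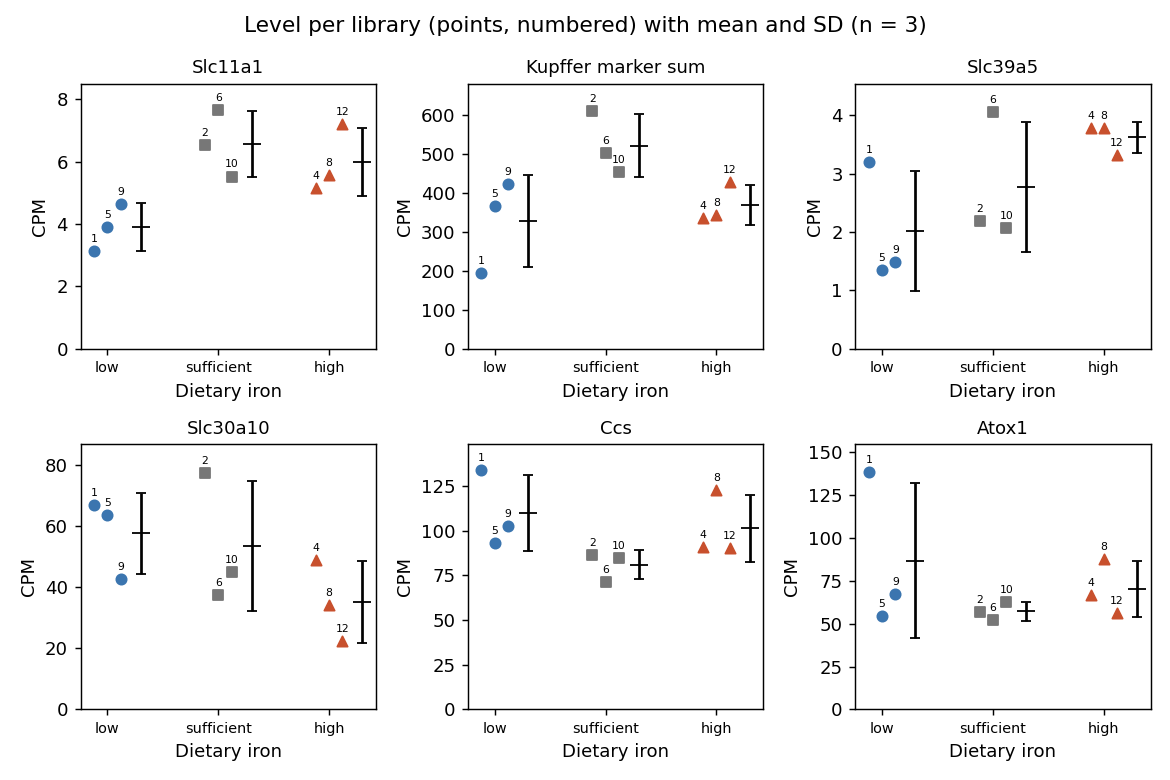
Level in CPM of Slc11a1, of the summed Kupffer cell markers and of Slc39a5, Slc30a10, Ccs and Atox1 in each library (points, with the library number) beside the mean and SD of each diet (n = 3), in order of dietary iron. Low-iron livers are the lowest for Slc11a1 (3.12 to 4.65 CPM), their Kupffer sums (195 to 423 CPM) lie below those of all sufficient-iron livers and overlap those of high-iron livers, and low-iron replicate 1 stands above its group for Atox1 and Ccs.

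The enzymes and partners that use the copper gave no call either. Of 21 copper enzymes and delivery genes, 20 were tested and 0 passed in any comparison. Cp, the gene of ceruloplasmin, with 192 CPM per kb, had 650, 655 and 624 CPM in high-iron livers, against 871, 797 and 881 CPM in low-iron livers. These groups did not overlap (log2 fold change -0.40 ± 0.16, edgeR unadjusted p = 0.0337, adjusted p = 0.450). Sufficient-iron livers had 770, 1059 and 648 CPM and overlapped both. Cp is also an acute-phase gene. Of 18 tested acute-phase genes 16 were below 0 for high against low iron (median -0.42), where 48.8% of all tested genes were above 0. Itih4 (-1.03, adjusted p = 0.0328) and Crp (-0.67, adjusted p = 0.0290) fell in the edgeR test, where 0.507% of all tested genes passed. That list summed to 8290 to 8940 CPM in high-iron livers and to 10800 to 12000 CPM in low-iron livers. The fall was not particular to acute-phase genes. General hepatocyte markers were below 0 in 12 of 12 tested genes for the same comparison, with a median log2 fold change of -0.40. The part of the acute-phase response in the Cp values was not tested.

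Heph, a copper-dependent iron oxidase gene related to Cp, was low, with 0.702, 1.17 and 1.30 CPM in low-iron livers, against 1.24, 2.85 and 2.10 CPM in sufficient-iron livers (log2 fold change -0.92 ± 0.34, edgeR adjusted p = 0.446). Steap3 and Steap4 encode reductases that prepare iron and copper for uptake. Steap3 had 14.2, 13.6 and 11.5 CPM in high-iron livers, against 16.2, 18.7 and 14.9 CPM in low-iron livers (-0.34 ± 0.13, edgeR adjusted p = 0.397). Steap4 had 52.1, 72.6 and 89.0 CPM in low-iron livers, against 79.4, 131 and 102 CPM in sufficient-iron livers, with overlap (-0.55 ± 0.23, edgeR adjusted p = 0.446). Sod1, the client of CCS, was looked up after its values were seen. It had 920, 562 and 605 CPM in low-iron livers, against 497, 422 and 529 CPM in sufficient-iron livers (0.53 ± 0.21, edgeR adjusted p = 0.446), and like Ccs and Atox1 it was highest in low-iron replicate 1; no length-corrected value was computed for it. The mitochondrial copper chaperone gene Sco2 is listed at 0 in all libraries.

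COMMD1 works in a complex with its relatives, and 14 of 14 genes of that complex were tested with 0 past the threshold. Commd9 had 18.6, 14.4 and 14.7 CPM in low-iron livers, above the 11.9, 10.4 and 11.6 CPM of sufficient-iron livers (0.49 ± 0.15, edgeR unadjusted p = 0.00780, adjusted p = 0.446). Commd6 had a log2 fold change of 0.37 ± 0.14 for low against sufficient iron and Commd10 one of 0.40 ± 0.15 for high against sufficient iron. Commd9, Commd6 (33.1 CPM) and Commd1 (30.3 CPM) were each highest in low-iron replicate 1, and no length-corrected values are given for them. The list's summed level was 320 to 335 CPM in low-iron livers, 316 to 344 CPM in sufficient-iron livers and 324 to 336 CPM in high-iron livers.

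Reads of some members cannot be assigned with certainty. In the GENCODE annotation of GRCm38, exons of 10 of the 30 members overlap those of another gene, and whether the counts used strand is not given in the sources used here. Slc39a7 shares 2084 bases with Gm20427, Slc30a7 1802 bases with Gm43106 and Gm6649, and Mtf1 721 bases with 1110065P20Rik. Commd1 shares 706 bases with Gm28048 and Zrsr1, and Slc30a10 533 bases with Gm2061. Slc11a1, Slc39a5, Ccs, Atox1 and Slc31a1 have no such overlap. Of the genes described beside the members, Mt2 shares 432 bases with Gm45774 and Cp 108 bases with Hps3.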

How the data were processed

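Liver RNA of 9 mice on 3 diets (3 mice each) was sequenced; per the labels' protocols an RNeasy Mini kit, the TruSeq RNA kit and a HiSeq instrument were used. The authors deposited 1 table of raw read counts for each library, listing 23420 gene symbols. Another 5 category entries at the end of each were kept out of library sizes and tests. FastQC and the builds mm10 and mm9 appear in the submitters' processing notes, with no role given. Aligner, counting program and use of strand: not given in the sources used here. Those category entries set non-unique and ambiguous reads apart from gene counts.

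The tests used edgeR 4.0.16 under R 4.3.3 (filterByExpr, TMM scaling, robust quasi-likelihood fit of all 9 libraries on diet alone; for the trend, log10 dietary iron). Benjamini-Hochberg adjustment ran over the 13020 tested genes of a comparison, at a threshold of 0.05, and p-values measure the spread between separate mice. SE and 95% intervals belong to the log2 fold change. Levels per length divide CPM by the length of the principal transcript in GENCODE (GRCm38), matched by symbol for 22994 genes and all 30 members. Promoters come from RefSeq (GRCm38.p6). The fit was tested on simulated data.

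The members, lists and tests were chosen with earlier results of these data known. Values per library are given for members with an unadjusted p under 0.05 in any of the 5 tests, for the most abundant member of each role, for Mtf1, Slc11a1, Mt1, Mt2, Slc39a8, Slc39a14 and Cp, and for members whose groups did not overlap or whose value turned on 1 library. Of each further list up to 3 genes with the lowest p in the 3-diet test are named. Alternatives were other filters and scalings, DESeq2 1.42.0, limma-voom (limma 3.58.1) with and without sample quality weights, an adjusted p under 0.1, the compared libraries alone, libraries left out singly or in pairs, Rn45s and Lars2 left out, and a length offset. The length offset and the pair low-iron replicate 1 and high-iron replicate 8 were chosen after seeing the data.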

Additional observations from a re-analysis of the deposited data

How the results depend on the processing

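With every alternative but one, 0 members passed in each of the 5 tests, and leaving out each library in turn gave a range of 0 to 0. The exception was limma-voom with sample quality weights, which called 1 member, Slc39a5, in high against low iron (1; adjusted p = 0.0165), in the 3-diet test (1; adjusted p = 0.0447) and in the trend (1; adjusted p = 0.0154); the cause was not tested. The log2 fold changes followed through the alternatives (Slc11a1, Slc30a10, Slc39a5, Ccs, Atox1 and Cp) kept their sign under each that gave a value. Over all genes the counts did depend on the tool. DESeq2 called 215, 105 and 365 genes for high against sufficient, low against sufficient and high against low iron. In the same order edgeR called 28, 0 and 66, and limma-voom with weights called 92, 2 and 378. For low against sufficient iron DESeq2 adjusted only over genes above its cutoff on mean count, where edgeR adjusted over 13020. The 105 and the 0 therefore do not rest on the same genes. DESeq2 gave no adjusted p for Slc11a1 and Atox1 in that comparison. Of the members only Slc31a1 and Ccs had a higher mean level than Atox1, so the rest could not be called there.

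No paired analysis was possible because no replicate number is shared between diets, and the labels do not say that neighbouring numbers mark a batch or day. With 3 mice per diet, the 95% intervals stayed within 2-fold either way for 23, 21 and 21 of the 26 members in high against sufficient, low against sufficient and high against low iron.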

Other observations

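The summed level of each group of genes is given without a test. The 6 copper genes summed to 467, 385 and 410 CPM in low-iron livers, 360, 330 and 354 CPM in sufficient-iron livers and 349, 410 and 349 CPM in high-iron livers, highest in low-iron replicate 1 and, among high-iron livers, in replicate 8. The ZIP genes summed to 236 to 259 CPM in low-iron livers, 248 to 261 CPM in sufficient-iron livers and 238 to 254 CPM in high-iron livers. The ZnT genes summed to 214 to 229 CPM in low-iron livers, 210 to 257 CPM in sufficient-iron livers and 192 to 212 CPM in high-iron livers, and the high-iron sums lay below all low-iron sums. The closest were 214 CPM in low-iron replicate 9 and 212 CPM in high-iron replicate 4. Slc30a10, the ZnT gene whose own values spread the most, is part of these sums. It had 42.5 to 66.9 CPM in low-iron livers and 22.3 to 48.9 CPM in high-iron livers, and no sum is given without it.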
